A study of Saccharomyces cerevisiae with 44 samples.

Results

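Budding yeast lacking the nuclear exosome nuclease Rrp6 was compared with wild-type yeast 48 h after the diauxic shift, when glucose is used up and cells turn to respiring ethanol. The rule took every steady-state RNA library of day 4 at this time, which gave 4 of the 44 samples of the series: rrp6Δ replicates 1 and 2 (strains 7079 and 7078) and wild-type replicates 1 and 2 (strains 5781 and 5782). All were of the W303 background, and the genotype, deletion of RRP6 or none, is the only difference that the labels give between the groups. The moment of glucose exhaustion was read with glucose strips, and cells were spun out of the medium and frozen. The labels give no purification step for these cultures, so each library is taken to hold the whole culture. RNA extracted with the RiboPure kit was made into libraries with the Universal Plus Total RNA-Seq kit, with molecular identifiers and a custom depletion of yeast rRNA.

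The nuclear exosome degrades and trims RNA from its 3′ end, and Rrp6 is its nuclease that is found in the nucleus. With the TRAMP complex, which adds short poly(A) tails, and with the Nrd1-Nab3-Sen1 complex, which ends transcription early, the exosome removes cryptic unstable transcripts (CUTs), many of which start at the nucleosome-free regions of promoters and run away from or against genes. Rrp6 also trims the 3′ ends of snoRNAs, the small nucleolar RNAs that guide modification of rRNA, and its loss is known to leave extended forms of them in growing cells.

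The 4 libraries held 2184967 and 2255168 S. cerevisiae mRNA reads in rrp6Δ, against 3632279 and 1596415 in wild-type. Wild-type replicate 1 was sequenced in both of the batches named in the column headers and its runs were summed, rrp6Δ replicate 1 came from batch 2 alone, and the remaining libraries came from batch 1 alone. Reads of another yeast, Kluyveromyces lactis, were counted in every library, and the labels do not say how they entered. There were 1.46 and 1.51 S. cerevisiae mRNA reads per K. lactis read in rrp6Δ, against 1.04 and 1.23 in wild-type. The groups did not overlap, and the difference of 0.39 on the log2 scale had p = 0.333 by a two-sided exact permutation test, the smallest p that 2 samples against 2 can give. Levels below are CPM, counts scaled to a common total of S. cerevisiae mRNA reads, after TMM scaling, which sets the typical mRNA of each library equal, and differences are log2 fold changes of rrp6Δ over wild-type ± SE from edgeR's quasi-likelihood test. Scaling the libraries by K. lactis reads instead moved the median log2 fold change of all mRNAs to 0.79, against -0.02 with TMM, and with it 4652 mRNAs were called higher and 75 lower. Every rise or fall below is therefore relative to the typical mRNA, and the value with K. lactis scaling is given beside the list medians and the log2 fold changes of named genes whose sign it turns.

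RRP6 (XV:326832-329033, plus strand, sacCer3/R64 build, as all positions below) had 23 and 19 reads in rrp6Δ, against 639 and 286 reads in wild-type. This is 9.22 and 7.66 CPM in rrp6Δ, against 209 and 204 CPM in wild-type, a log2 fold change of -4.61 ± 0.16 (edgeR's quasi-likelihood test, Benjamini-Hochberg adjusted p = 4.1e-16). Each library thus followed its label. The few reads left in rrp6Δ were not assigned to a part of the gene, since the tables give 1 count per gene.

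Many mRNAs differed between the strains. Of 6146 mRNAs tested, 1189 were higher and 1683 lower in rrp6Δ at a Benjamini-Hochberg adjusted p under 0.05 (46.7% called, 19.3% as higher and 27.4% as lower). The counts of gene lists below are to be read beside these shares. Of the rises 420, but of the falls 120, reached 2-fold. The rises were thus fewer and larger than the falls. Without wild-type replicate 1 the count was 711 higher and 1106 lower. In whole cultures, fewer cells of a type and less RNA per cell cannot be told apart. The p-values use the spread between replicates in all 10 groups that were fitted together, 20 libraries with 10 residual degrees of freedom, and the design text calls the replicates biological.

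Many of the largest rises were in reading frames without a standard name. Of the 20 highest with a mean of at least 32 counts over the 4 libraries, 12 had no standard name, 11 were classed as dubious, 11 had another gene on the opposite strand and 11 overlapped a catalogued noncoding transcript on their own strand. The dubious frame YMR013W-A among them lies inside snR73 on the same strand. The highest of the 20, chosen after its value was seen, was YLR171W, a dubious frame opposite APS1, with 126 and 74 reads in rrp6Δ, against 2 and 0 in wild-type. Dubious reading frames as a class had 132 higher and 22 lower of 504 tested, with a median of 0.80, against 915 higher and 1439 lower of 4826 verified genes, with a median of -0.05 that turned to 0.75 with K. lactis scaling. Where a noncoding transcript ran over a dubious frame on the same strand, 76 of 184 were higher and 6 lower, with a median of 1.46.

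The 10 highest genes described next had a standard name, a mean of at least 32 counts and no overlap between the strains, so that their lack of overlap is not a result. TYC1 (II:800123-800242, minus strand) was the highest of them, with 51.3 and 30.2 CPM in rrp6Δ, against 1.63 and 1.42 CPM in wild-type (4.68 ± 0.39). Its interval overlaps a noncoding transcript, SUT454, on its own strand. SRL1, a cell wall mannoprotein, had 64.5 and 73.4 CPM in rrp6Δ, against 10.8 and 19.2 CPM in wild-type (2.34 ± 0.18). CIS3, a covalently bound wall protein, had 79.4 and 52.8 CPM in rrp6Δ, against 17.3 and 8.55 CPM in wild-type (2.20 ± 0.26). Wild-type levels of all 3 were under 20 CPM. The wall proteins TOS6 (1.98 ± 0.25) and SCW10 (1.73 ± 0.16) were higher as well.

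Other genes high on the list had unrelated roles. GND1, the 6-phosphogluconate dehydrogenase of the pentose phosphate pathway, had 29.7 and 25.4 CPM in rrp6Δ, against 6.53 and 4.98 CPM in wild-type (2.19 ± 0.24). PRY2, a secreted sterol-binding protein, had 71.7 and 60.9 CPM in rrp6Δ, against 18.6 and 12.1 CPM in wild-type (2.01 ± 0.17). IZH4, a membrane protein tied to zinc homeostasis, had 30.5 and 19.8 CPM in rrp6Δ, against 4.57 and 7.12 CPM in wild-type (2.22 ± 0.33). All 3 were at low levels in wild-type. PTH4 (2.26 ± 0.32) and the pheromone-regulated PRM4 (1.79 ± 0.19) complete the 10 highest named genes.

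**Figure D1:**
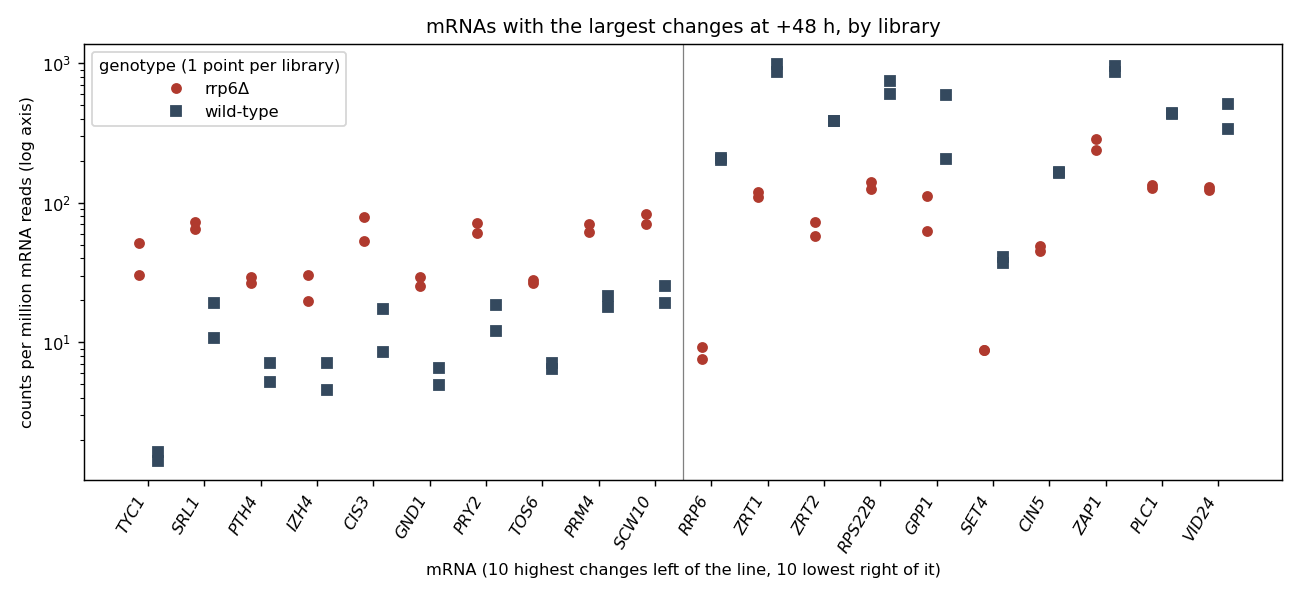
CPM of the 10 highest and 10 lowest named mRNAs in each library at +48 h, on a log axis, with rrp6Δ libraries as circles left of wild-type libraries as squares. RRP6 itself has 9.22 and 7.66 CPM in rrp6Δ, against 209 and 204 CPM in wild-type, and genes whose strains overlap were not eligible to be shown.

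The lowest genes were named by the same rule of a standard name, at least 32 counts on average and no overlap between the strains. Among them the largest falls after RRP6 were in the zinc uptake genes ZRT1 and ZRT2. ZRT1 (VII:20978-22108, plus strand), the high-affinity zinc transporter, had 109 and 119 CPM in rrp6Δ, against 857 and 988 CPM in wild-type (-3.01 ± 0.25, adjusted p = 1.1e-06 by edgeR's quasi-likelihood test). ZRT2, the low-affinity transporter, had 57.7 and 72.6 CPM in rrp6Δ, against 383 and 387 CPM in wild-type (-2.56 ± 0.11). ZAP1, the transcription factor that switches both on when zinc is scarce, had 237 and 288 CPM in rrp6Δ, against 867 and 947 CPM in wild-type (-1.78 ± 0.12). The lack of overlap between the strains in these 3 genes was required by the rule and is not a result. All 3 stayed lower with K. lactis scaling, at -2.25, -1.79 and -1.02. Of the 11 zinc regulon genes tested, 1 was higher and 6 were lower, beside 19.3% of all mRNAs higher and 27.4% lower, with a median of -0.46 that turned to 0.32 with K. lactis scaling.

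Among the falls were also a ribosomal protein gene and a ribosome assembly gene whose counted intervals hold a snoRNA. RPS22B (XII:856442-857317, plus strand), a protein of the small subunit, had 141 and 125 CPM in rrp6Δ, against 741 and 601 CPM in wild-type (-2.34 ± 0.11), and its interval holds snR44. NOG2, a GTPase of large subunit assembly, had 279 and 266 CPM in rrp6Δ, against 720 and 827 CPM in wild-type (-1.50 ± 0.11), and its interval holds snR191. The 8 snoRNAs that lie inside a tested mRNA on the same strand are listed at 0 in the table of structural features, so their reads may be part of the mRNA's count. Of the 8 host mRNAs, 3 were higher and 2, RPS22B and NOG2, lower. The 3 that were higher, ASC1 (0.35 ± 0.12), EFB1 (0.56 ± 0.13) and RPL7B (0.58 ± 0.11), moved by less, and EFB1 did not pass without rrp6Δ replicate 1 (0.24).

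The other large falls named by the rule were in signalling, regulation and turnover. CIN5, a bZIP transcription factor of stress tolerance, had 44.9 and 48.8 CPM in rrp6Δ, against 162 and 166 CPM in wild-type (-1.81 ± 0.16). PLC1, the phospholipase C that feeds inositol polyphosphate synthesis, had 127 and 134 CPM in rrp6Δ, against 443 and 435 CPM in wild-type (-1.75 ± 0.09). VID24, which targets gluconeogenic enzymes for degradation once glucose returns, had 129 and 124 CPM in rrp6Δ, against 337 and 506 CPM in wild-type (-1.71 ± 0.20). SET4, a SET-domain protein, fell as well (-2.12 ± 0.27). GPP1, a glycerol phosphatase, varied more: 62.5 and 113 CPM in rrp6Δ, against 207 and 589 CPM in wild-type (-2.12 ± 0.42), and it did not pass when the 4 libraries were fitted alone (-2.07).

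Genes of RNA degradation did not move one way. Of 10 nuclear exosome core genes tested, 4 were higher and 2 lower (median 0.09, against -0.02 over all mRNAs, of which 19.3% were called higher and 27.4% lower). DIS3, the other nuclease of the nuclear exosome, had 60.9 and 81.1 CPM in rrp6Δ, against 27.7 and 31.3 CPM in wild-type (1.29 ± 0.16). RRP46, a subunit of the ring, had 52.5 and 41.5 CPM in rrp6Δ, against 77.4 and 89.7 CPM in wild-type (-0.80 ± 0.15), and was at -0.01 with K. lactis scaling. Of 8 genes for Rrp6 partners and TRAMP, 2 were higher and 3 lower, RRP6 itself included. AIR2, an RNA-binding subunit of TRAMP, had 80.6 and 62.1 CPM in rrp6Δ, against 35.9 and 27.8 CPM in wild-type (1.11 ± 0.16).

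The termination factor NRD1 is known to limit its own mRNA by early termination. It had 890 and 993 CPM in rrp6Δ, against 376 and 368 CPM in wild-type (1.34 ± 0.09). This rise was smaller than the log2 fold changes of 3.09 at +24 h and 3.14 at 2 h before the shift, and the difference from +24 h was -1.75 ± 0.13 (adjusted p = 7.9e-11, interaction contrast of edgeR's quasi-likelihood test). Of the 22 genes of Nrd1-Nab3-Sen1 and termination, 7 were higher and 5 lower, with a median of 0.16. Of 19 genes known to be attenuated or repressed through noncoding transcription, 5 were higher and 5 lower, with a median of 0.25. PHO84, the phosphate transporter with a known antisense transcript, had 819 and 921 CPM in rrp6Δ, against 1740 and 1936 CPM in wild-type (-1.08 ± 0.14).

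In cytoplasmic decay, 8 genes were higher and 6 lower of 23 tested, with a median of -0.02 that turned to 0.77 with K. lactis scaling. SKI2, the helicase that feeds RNA to the cytoplasmic exosome, had 70.9 and 74.6 CPM in rrp6Δ, against 31.0 and 30.6 CPM in wild-type (1.24 ± 0.12). SKI8, of the same complex, had 21.6 and 21.8 CPM in rrp6Δ, against 10.8 and 7.83 CPM in wild-type (1.14 ± 0.23). The nonsense-mediated decay genes NAM7 (-0.52 ± 0.08) and NMD2 (-0.47 ± 0.09) were lower, and turned to 0.25 and 0.31 with K. lactis scaling.

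Glycolysis was the gene list with the lowest median of the 37 described. Of 20 genes tested, 1 was higher and 15 lower, with a median of -0.88, and the median was -0.11 with K. lactis scaling. CDC19, the pyruvate kinase, had 1757 and 2611 CPM in rrp6Δ, against 6366 and 6302 CPM in wild-type (-1.54 ± 0.15). ENO1, an enolase, had 307 and 392 CPM in rrp6Δ, against 1115 and 1139 CPM in wild-type (-1.69 ± 0.14). The hexokinase HXK2 went the other way, with 41.7 and 45.6 CPM in rrp6Δ, against 14.7 and 20.7 CPM in wild-type (1.38 ± 0.20). The strains did not overlap in any of the 3, nor in 69.3% of all mRNAs tested and 2846 of the 2872 called. Of 15 hexose transporters and sensors, 1 was higher and 4 lower with a median of 0.18, and the high-affinity transporter HXT7 had 50.5 and 54.0 CPM in rrp6Δ, against 119 and 108 CPM in wild-type (-1.14 ± 0.17). HXT7 and HXT6 are near-identical, so reads shared by both were not counted.

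Genes for using non-fermentable carbon were mixed, beside 19.3% of all mRNAs higher and 27.4% lower. Gluconeogenesis and the glyoxylate cycle had 5 higher and 2 lower of 18 (median 0.11). FBP1, the gluconeogenic fructose-bisphosphatase, had 70.1 and 82.3 CPM in rrp6Δ, against 37.9 and 32.04 CPM in wild-type (1.09 ± 0.17). SIP4, a transcription factor of gluconeogenic genes, had 606 and 748 CPM in rrp6Δ, against 323 and 351 CPM in wild-type (1.01 ± 0.14). The strains did not overlap in either gene, which also held for 69.3% of all mRNAs tested and is no result about them. The TCA cycle had 5 higher and 5 lower of 16 (median -0.04, and 0.74 with K. lactis scaling), from LSC1 (0.64 ± 0.11) to the succinate dehydrogenase subunit SDH2 (-0.92 ± 0.09). Beta-oxidation and peroxisomes had 2 higher and 11 lower of 22, with a median of -0.31 that turned to 0.48 with K. lactis scaling. CAT2, a carnitine acetyltransferase, was higher (1.03 ± 0.17), and the peroxisomal catalase CTA1 lower (-0.92 ± 0.13).

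The respiratory chain and ATP synthase had 4 higher and 14 lower of 32, with a median of -0.19 that turned to 0.61 with K. lactis scaling. COX13, a cytochrome oxidase subunit, had 298 and 272 CPM in rrp6Δ, against 556 and 504 CPM in wild-type (-0.90 ± 0.09). CYC1, the main cytochrome c gene, was at low levels and higher in rrp6Δ, with 19.6 and 14.5 CPM, against 7.83 and 4.27 CPM in wild-type (1.35 ± 0.29).

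Most genes known for stationary phase were lower relative to the typical mRNA. Of 26 stationary phase and hydrophilin genes, 0 were higher, 16 lower and 10 did not pass, with a median of -0.61. With K. lactis scaling 11 were higher and 2 lower, with a median of 0.19. GRE1, a hydrophilin, was the most abundant of those named, with 14562 and 19701 CPM in rrp6Δ, against 40989 and 38466 CPM in wild-type (-1.21 ± 0.16). HBT1 had 9088 and 13915 CPM in rrp6Δ, against 22455 and 27116 CPM in wild-type (-1.11 ± 0.15). Both stayed lower with K. lactis scaling, at -0.44 and -0.36. Autophagy had 0 higher and 21 lower of 27, with a median of -0.53, and 12 higher and 2 lower with K. lactis scaling, with a median of 0.26. ATG3, which helps to attach Atg8 to membranes, had 200 and 171 CPM in rrp6Δ, against 425 and 417 CPM in wild-type (-1.18 ± 0.09). ATG8 itself, the ubiquitin-like protein of the autophagosome, had 360 and 311 CPM in rrp6Δ, against 744 and 647 CPM in wild-type (-1.06 ± 0.10).

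Storage carbohydrate and antioxidant genes had more falls than rises, and heat shock genes did not. Of all mRNAs 19.3% were higher and 27.4% lower. Trehalose and glycogen had 4 higher and 12 lower of 20, with a median of -0.34 that turned to 0.44 with K. lactis scaling. TSL1, a subunit of trehalose synthase, was higher (0.80 ± 0.14), and the glycogen initiator GLG2 lower (-0.89 ± 0.10). Heat shock and chaperones had 7 higher and 6 lower of 27 (25.9% and 22.2%, median 0.04). SSA2, a constitutive Hsp70, had 83.8 and 77.0 CPM in rrp6Δ, against 22.8 and 33.5 CPM in wild-type (1.59 ± 0.20). HSP26, a small heat shock protein, was lower (-1.10 ± 0.18), as was the stress chaperone HSP31 (-1.23 ± 0.11). Antioxidant enzymes had 2 higher and 13 lower of 23, with a median of -0.32 that turned to 0.48 with K. lactis scaling. TRX2, a cytoplasmic thioredoxin, had 207 and 190 CPM in rrp6Δ, against 461 and 395 CPM in wild-type (-1.12 ± 0.10).

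Lists of protein synthesis genes other than ribosome biogenesis had more falls than rises, set against 19.3% of all mRNAs higher and 27.4% lower. Of 137 ribosomal protein genes, 4 were higher and 56 lower (40.9%), with a median of -0.24 that turned to 0.56 with K. lactis scaling. Mitochondrial ribosome genes had 2 higher and 17 lower of 54 (31.5%, near the share of all mRNAs, median -0.20, and 0.62 with K. lactis scaling), and translation factors 3 higher and 15 lower of 35 (median -0.20, and 0.58). SUI1, the initiation factor eIF1, fell most among the last, with 204 and 144 CPM in rrp6Δ, against 483 and 385 CPM in wild-type (-1.33 ± 0.12). RPL18B was a ribosomal protein gene that rose, with 97.0 and 85.1 CPM in rrp6Δ, against 50.6 and 42.7 CPM in wild-type (0.93 ± 0.13). Of 60 ribosome biogenesis genes 8 were higher and 7 lower (median -0.00, and 0.77 with K. lactis scaling). The subunits of the 3 nuclear RNA polymerases had 0 higher and 9 lower of 31 (29.0%, near the share of all mRNAs), with a median of -0.12 that turned to 0.68 with K. lactis scaling. The proteasome had 1 higher and 17 lower of 33, with a median of -0.26 that turned to 0.52.

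Genes of DNA replication had the highest median of the lists. Of 30 genes of G1/S and DNA replication, 15 were higher and 2 lower, with a median of 0.54. CDC45, a part of the replicative helicase, had 20.04 and 14.1 CPM in rrp6Δ, against 4.57 and 4.98 CPM in wild-type (1.86 ± 0.28). SIC1, the inhibitor that holds back S phase, had 155 and 138 CPM in rrp6Δ, against 278 and 259 CPM in wild-type (-0.88 ± 0.11), and was at -0.09 with K. lactis scaling. Genes of mitosis had 11 higher and 4 lower of 31 (median 0.23). The B-type cyclin CLB4 was among them (1.60 ± 0.40). Core histones went the other way, with 1 higher and 6 lower of 10 and a median of -0.46 that turned to 0.32 with K. lactis scaling. The histone that rose was HTA2, with 91.8 and 56.5 CPM in rrp6Δ, against 27.4 and 22.1 CPM in wild-type (1.53 ± 0.19), while HTB1 had 285 and 253 CPM in rrp6Δ, against 490 and 399 CPM in wild-type (-0.74 ± 0.11, and 0.06 with K. lactis scaling).

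The markers of mating type did not separate the strains clearly. None of 7 a-cell markers passed in either direction (median -0.01, and 0.83 with K. lactis scaling), and of 4 alpha-cell markers 2 were higher, both at low levels. MF(ALPHA)2 had 9.62 and 8.06 CPM in rrp6Δ, against 3.26 and 1.42 CPM in wild-type (1.72 ± 0.43). The 2 markers were MF(ALPHA)2 and SAG1, and SAG1 did not pass without rrp6Δ replicate 2 (0.30) or without wild-type replicate 1 (0.35). Of 6 haploid markers 0 were higher and 1, RME1, lower (-0.60 ± 0.13, and 0.21 with K. lactis scaling). Pheromone response and mating had 7 higher and 1 lower of 33 (median 0.25). Meiosis and sporulation had 2 higher and 12 lower of 42, or 28.6% lower beside 27.4% of all mRNAs, with a median of -0.19 that turned to 0.61 with K. lactis scaling. DIT2, which makes a precursor of the spore wall, was one of the 2 that rose, with 12.0 and 11.3 CPM in rrp6Δ, against 1.96 and 0.712 CPM in wild-type (2.88 ± 0.48).

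Nutrient regulons differed among themselves, beside 19.3% of all mRNAs higher and 27.4% lower. The phosphate regulon had 1 higher and 15 lower of 22, with a median of -0.45 that turned to 0.34 with K. lactis scaling. SPL2, a regulator of low-affinity phosphate transport, had 142 and 110 CPM in rrp6Δ, against 361 and 302 CPM in wild-type (-1.41 ± 0.14). The iron regulon had 6 higher and 9 lower of 28, or 21.4% and 32.1%, near the shares of all mRNAs (median -0.08, and 0.72 with K. lactis scaling). Amino acid genes under Gcn4 had 12 higher and 10 lower of 45 (median 0.14), with SER3, a serine synthesis gene repressed by a known upstream noncoding RNA, at 166 and 185 CPM in rrp6Δ, against 95.6 and 94.0 CPM in wild-type (0.89 ± 0.16). Sulfur amino acid genes had 8 higher and 4 lower of 24 (median 0.05), and CYS3 of this list had 52.1 and 41.5 CPM in rrp6Δ, against 15.0 and 14.2 CPM in wild-type (1.66 ± 0.22). Vitamin B6 and thiamine genes had 3 higher and 2 lower of 24 (median 0.09), and SNZ1 of this list fell (-1.05 ± 0.13). Of the 5 flocculin genes, FLO1 was higher (0.61 ± 0.13) and 3 were lower, with a median of -0.35 that turned to 0.45 with K. lactis scaling.

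**Figure D2:**
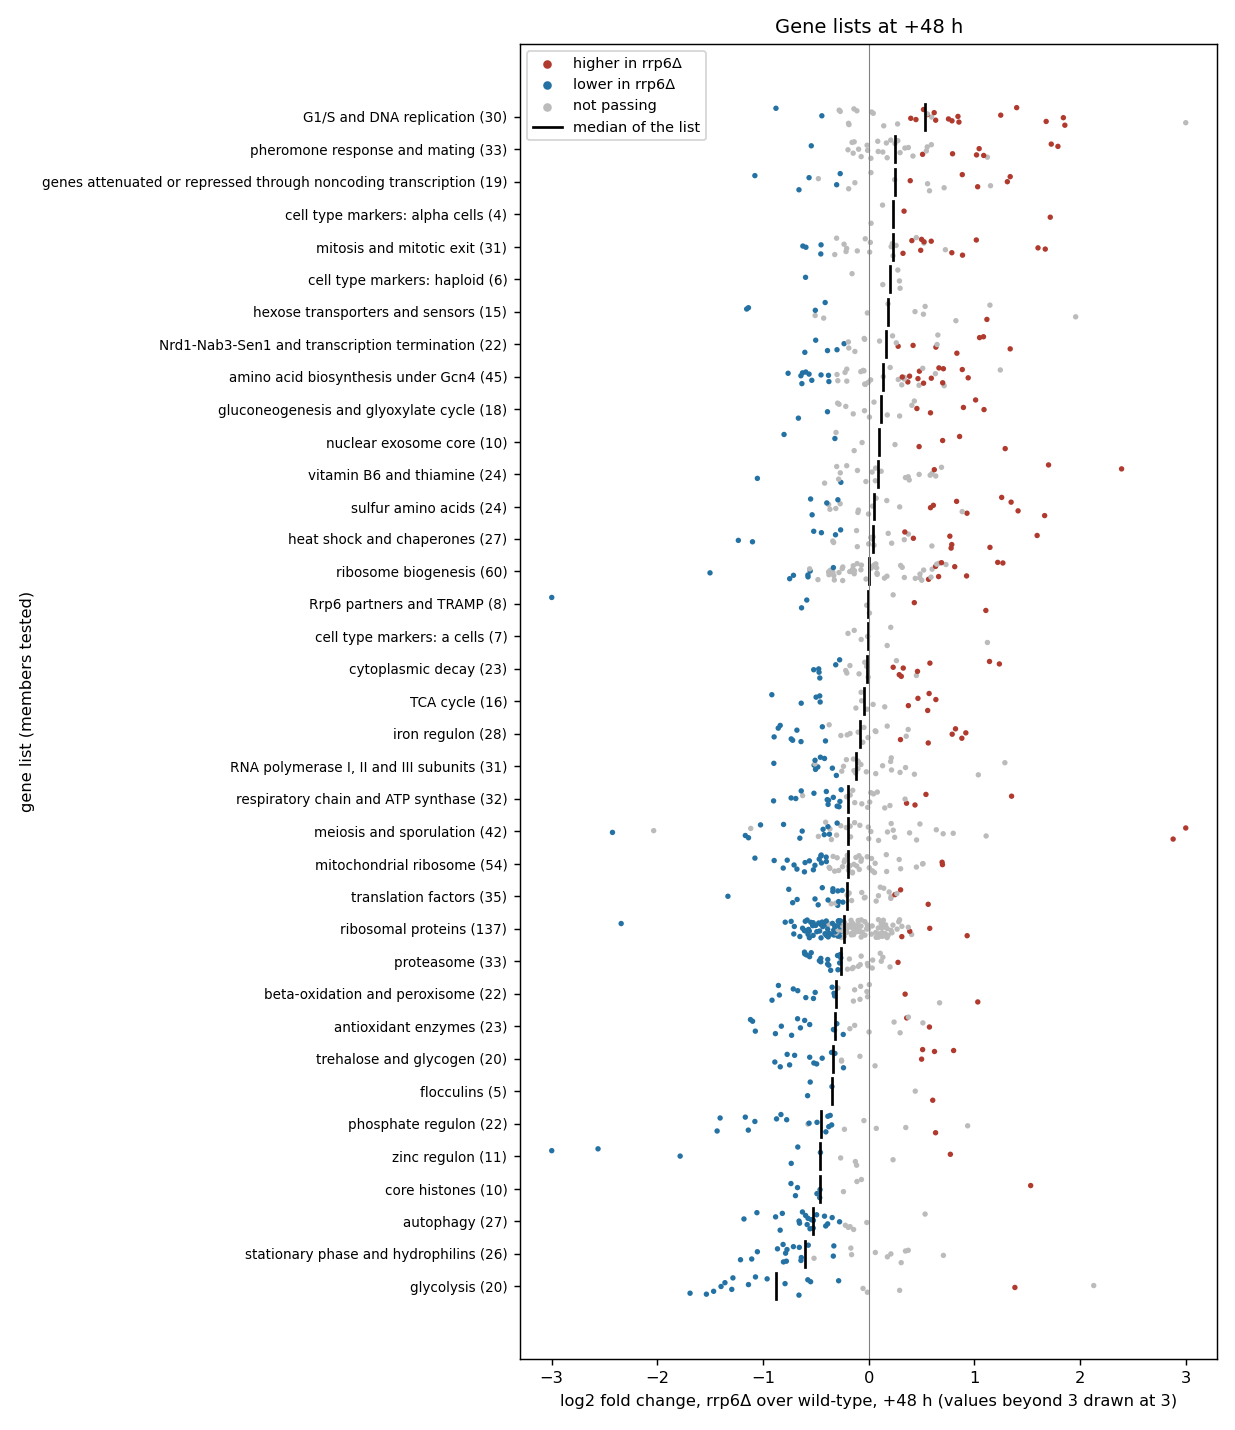
Log2 fold changes of rrp6Δ over wild-type at +48 h of every tested member of the 37 gene lists, coloured by whether the member passed as higher, passed as lower or did not pass, with the list's median as a black tick. Medians run between -0.88 for glycolysis and 0.54 for G1/S and DNA replication, on the TMM scale, and all but that of glycolysis are above 0 with K. lactis scaling.

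The effect of the deletion at +48 h was then set against its effect 24 h after the shift, in an interaction contrast over 8 separate libraries. It differed at 2839 of 6146 mRNAs (46.2% called), with 1491 higher and 1348 lower at +48 h. With K. lactis scaling the median of this difference over all mRNAs was -0.58, against 0.04 with TMM, and the split was 376 higher and 2851 lower. Mitochondrial ribosome genes had 0 higher and 54 lower of 54, with a median difference of -1.41. Ribosomal proteins had 0 higher and 125 lower of 137 (median -0.82), and the respiratory chain and ATP synthase 0 higher and 30 lower of 32 (median -0.75). The medians of the rrp6Δ effect in these 3 lists were 1.24, 0.62 and 0.62 at +24 h, and near or below 0 at +48 h as given above. Autophagy had 20 higher and 2 lower of 27, with a median difference of 0.55 that turned to -0.08 with K. lactis scaling. Of 26 stationary phase genes 14 were higher and 4 lower, with a median of 1.01, and 0.39 with K. lactis scaling.

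The named mRNAs with the largest positive differences were far below wild-type in rrp6Δ at +24 h and much nearer to it at +48 h. SPS100, a spore wall gene, had 2318 and 2546 CPM in rrp6Δ at +48 h, against 5042 and 4851 CPM in wild-type, while at +24 h it had 34.4 and 31.7 CPM in rrp6Δ, against 9632 and 9640 CPM in wild-type. The effects differed by 7.16 ± 0.26. PDC6, a minor pyruvate decarboxylase, had 91.4 and 138 CPM in rrp6Δ at +48 h, against 154 and 173 CPM in wild-type, and 13.1 and 17.2 CPM at +24 h, against 2023 and 2726 CPM. ATO3, a membrane protein of ammonium export, had 481 and 493 CPM in rrp6Δ at +48 h, against 366 and 402 CPM in wild-type, and 8.29 and 5.34 CPM at +24 h, against 542 and 494 CPM. For PDC6 the wild-type level was also far lower at +48 h than at +24 h, whereas for SPS100 and ATO3 it was within about 2-fold.

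Another group was far above wild-type at +24 h and no longer at +48 h. HXT7 had 325 and 432 CPM in rrp6Δ at +24 h, against 48.3 and 55.2 CPM in wild-type, and at +48 h it was lower than in wild-type as given above (difference of effects -4.01 ± 0.22). PTR2, the peptide transporter, had 284 and 220 CPM in rrp6Δ at +48 h, against 434 and 414 CPM in wild-type, and 175 and 182 CPM at +24 h, against 25.3 and 23.4 CPM. PIC2, a mitochondrial carrier of phosphate and copper, had 107 and 96.4 CPM in rrp6Δ at +48 h, against 140 and 128 CPM in wild-type, and 997 and 1252 CPM at +24 h, against 141 and 135 CPM.

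Against the effect 2 h before the shift, 3048 mRNAs differed (49.6% called), with 1380 higher and 1668 lower at +48 h, and the median over all mRNAs was -0.02, and 1.18 with K. lactis scaling. Of 26 stationary phase genes 0 were higher and 22 lower, with a median difference of -2.33, and of -1.14 with K. lactis scaling. Their median effect was 1.53 at 2 h before the shift, against -0.61 at +48 h. ZRT1 had 109 and 119 CPM in rrp6Δ at +48 h, against 857 and 988 CPM in wild-type, but 201 and 215 CPM at 2 h before the shift, against 49.3 and 33.6 CPM. CPP3 had 34.1 and 45.6 CPM in rrp6Δ at +48 h, against 82.6 and 79.8 CPM in wild-type, but 30.1 and 35.8 CPM before the shift, against 1.32 and 1.39 CPM. In both genes the order of the strains turned over between the times, and the differences of effects were -5.32 ± 0.35 and -5.60 ± 0.34. RKM4, a methyltransferase of a ribosomal protein, had 9.62 and 9.27 CPM in rrp6Δ at +48 h, against 1.31 and 0 CPM in wild-type, and 57.4 and 55.5 CPM before the shift, against 61.4 and 53.8 CPM.

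**Figure D3:**
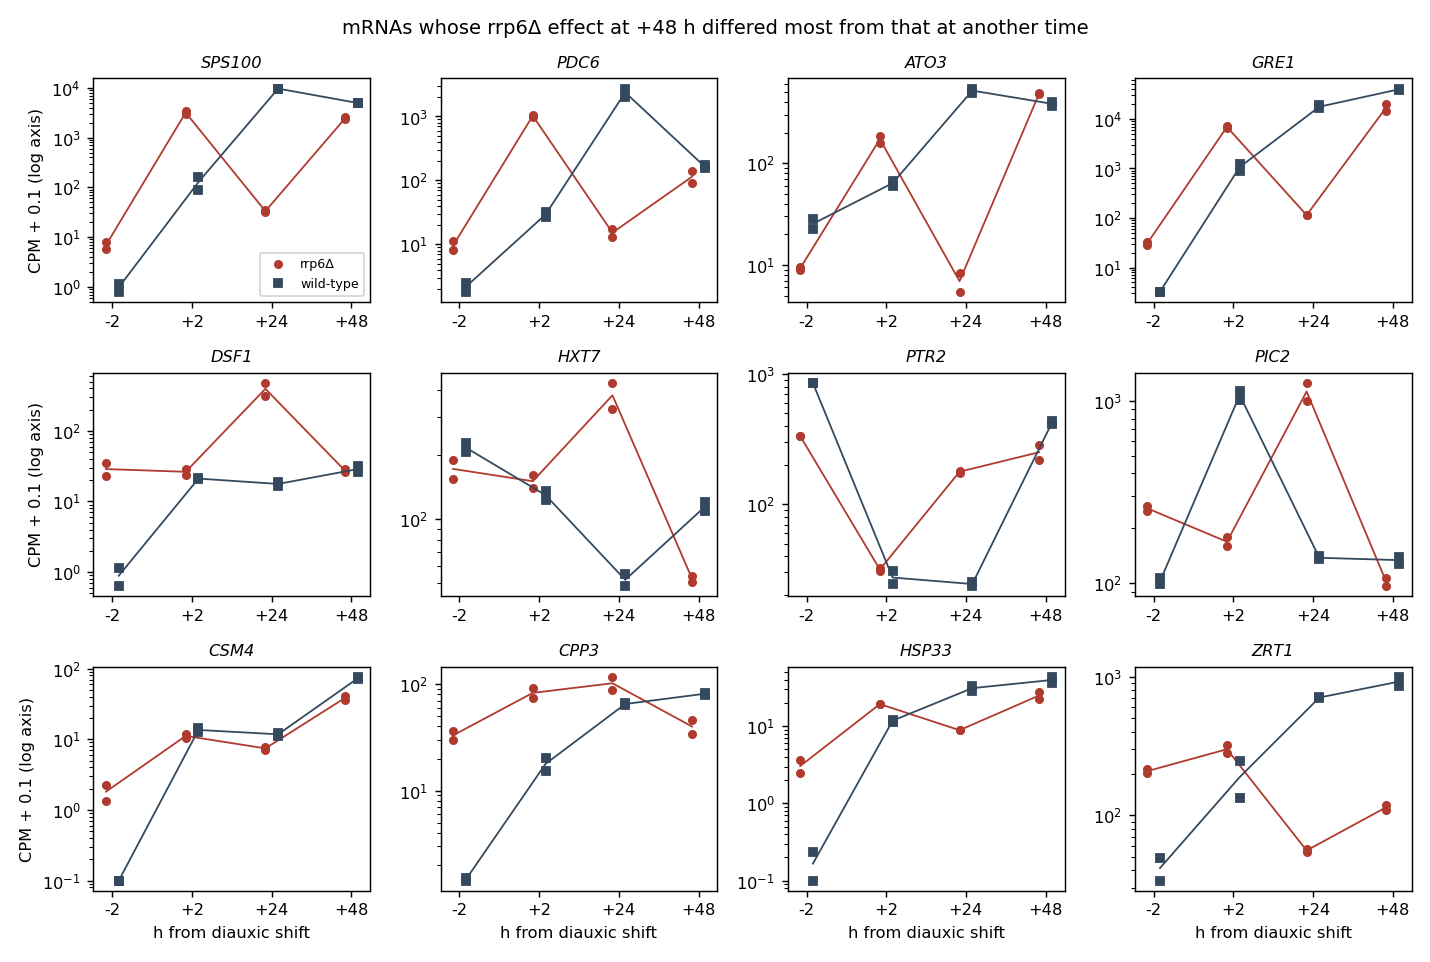
CPM plus 0.1 on a log axis of 12 mRNAs at -2, 2, 24 and 48 h from the diauxic shift, with points for libraries and lines for the means of rrp6Δ and wild-type. SPS100 sits at 34.4 and 31.7 CPM in rrp6Δ at +24 h, against 9632 and 9640 CPM in wild-type, and the strains lie closer together at +48 h.

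Antisense RNA was at a higher level in rrp6Δ relative to sense mRNA. Reads antisense to mRNAs came to 9.95% and 10.5% of sense reads in rrp6Δ, against 7.43% and 7.56% in wild-type. Of 5841 genes with enough antisense reads to test, 1842 had more antisense and 389 less in rrp6Δ (38.2% called, 31.5% as higher and 6.66% as lower), with a median log2 fold change of 0.62. Without wild-type replicate 1 there were 1191 higher and 212 lower. These counts used the scaling of the sense mRNAs. When the antisense table was scaled on itself the split was 1167 higher and 1010 lower. With no gene or catalogued noncoding transcript on the opposite strand, 465 were higher and 134 lower of 2195 (median 0.43, and -0.14 when the table was scaled on itself).

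The genes with the largest antisense rises under the naming rule had few such reads in wild-type. APS1 (XII:500579-501049), a clathrin adaptor subunit, had 180 and 115 antisense reads in rrp6Δ, against 3 and 0 in wild-type, a ratio of 88.3 with a counting interval of 29.9 to 431. UPC2, a regulator of sterol genes, had 98.2 and 98.8 antisense CPM in rrp6Δ, against 1.63 and 0.712 in wild-type (6.17 ± 0.30). EFM3, a methyltransferase of an elongation factor, had 121 and 160 antisense CPM in rrp6Δ, against 2.28 and 2.14 in wild-type (5.95 ± 0.25). MCM7, of the replicative helicase, had a ratio of 60.8 (20.5 to 297), and the antisense log2 fold changes of CIN4 and RNP1 were 5.10 ± 0.38 and 5.06 ± 0.28.

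The sense mRNAs of these genes did not share 1 direction. The sense log2 fold changes were 0.00 ± 0.16 for APS1, 0.95 ± 0.15 for UPC2, 0.22 ± 0.24 for EFM3, 0.40 ± 0.13 for MCM7, -0.61 ± 0.20 for CIN4 and -0.48 ± 0.52 for RNP1, of which those of UPC2, MCM7 and CIN4 passed. With K. lactis scaling those of CIN4 and RNP1 turned to 0.21 and 0.35. Over 5581 genes tested on both strands, 24.5% of the 1809 with higher antisense had a higher and 19.3% a lower sense mRNA. Of the 3426 whose antisense did not pass, 17.4% had a higher and 31.8% a lower sense mRNA, and of the 346 with lower antisense, 14.7% and 40.8%. Among all 5581 the shares were 19.5% and 28.3%.

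Fewer genes lost antisense reads. SPC25, a kinetochore protein, had 3.21 and 5.24 antisense CPM in rrp6Δ, against 24.2 and 32.04 in wild-type (-2.67 ± 0.33). FLO10, a flocculin, had 44.9 and 54.0 antisense CPM in rrp6Δ, against 267 and 296 in wild-type (-2.50 ± 0.14). SPF1, a membrane ATPase of the endoplasmic reticulum, had 5.61 and 5.24 antisense CPM in rrp6Δ, against 22.5 and 29.2 in wild-type (-2.20 ± 0.33). CDC19, whose sense mRNA fell as above, also had fewer antisense reads (-2.03 ± 0.32).

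Antisense changes were also counted by the orientation of the next gene. Of 2826 genes whose downstream neighbour is in tandem, 1219 had more antisense and 154 less (median 1.03), against 618 and 234 of 3007 genes with a convergent neighbour (median 0.34). When the antisense table was scaled on itself these medians were 0.46 and -0.24. With a catalogued noncoding transcript opposite, 1272 of 2997 were higher and 140 lower (median 0.95).

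The catalogued noncoding transcripts, merged by the authors from several published lists and here called pa-ncRNAs after the name of their table, rose more widely than mRNAs. Of 3903 tested, 1603 were higher and 319 lower in rrp6Δ (49.2% called, 41.1% as higher and 8.17% as lower), with a median of 0.80. Scaled on their own table, the split was 797 higher and 942 lower. At the other times the medians of all pa-ncRNAs were 1.58 at 2 h before the shift, 1.41 at +2 h and 1.17 at +24 h. The difference from +24 h passed for 353 as higher and 488 as lower at +48 h (21.5% called, 9.04% as higher, median -0.22, and -0.87 with K. lactis scaling), for 249 and 266 without wild-type replicate 1, and that from 2 h before the shift for 163 as higher and 1098 as lower (32.3% called, 4.18% as higher, median -0.58, and 0.57 with K. lactis scaling).

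The classes of noncoding transcripts differed in their medians, and share many members. CUTs had 508 higher and 51 lower of 825 (median 1.48), CUTHMM transcripts 1038 and 100 of 1804 (median 1.34), and Nrd1-unterminated transcripts (NUTs) 905 and 84 of 1454 (median 1.32). Xrn1-sensitive transcripts (XUTs) had 642 and 87 of 1450 (median 0.83), stable unannotated transcripts (SUTs) 349 and 51 of 772 (median 0.76), and Ssu72-restricted transcripts (SRATs) 139 and 29 of 421 (median 0.58). CUT4x transcripts were lowest, with 192 and 108 of 699 (median 0.26). Among transcripts of 1 class alone the order was another: CUTHMM had a median of 1.20 (505 tested), NUT 0.88 (213), XUT 0.44 (451), SRAT 0.41 (196), SUT 0.34 (134), CUT 0.28 (128) and CUT4x 0.07 (435). With the table scaled on itself the medians of CUT4x, SUT and SRAT were -0.50, -0.01 and -0.17, and for 1 class alone those of XUT, SRAT, SUT, CUT and CUT4x were -0.33, -0.36, -0.43, -0.48 and -0.67. Transcripts with no mRNA on their own strand had 1319 higher and 160 lower of 3016 (median 0.98), those divergent from a gene's start 863 and 74 of 1614 (median 1.28), and those overlapping an mRNA on their own strand 284 and 159 of 887 (median 0.26, and -0.50 when scaled on the table itself).

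**Figure D4:**
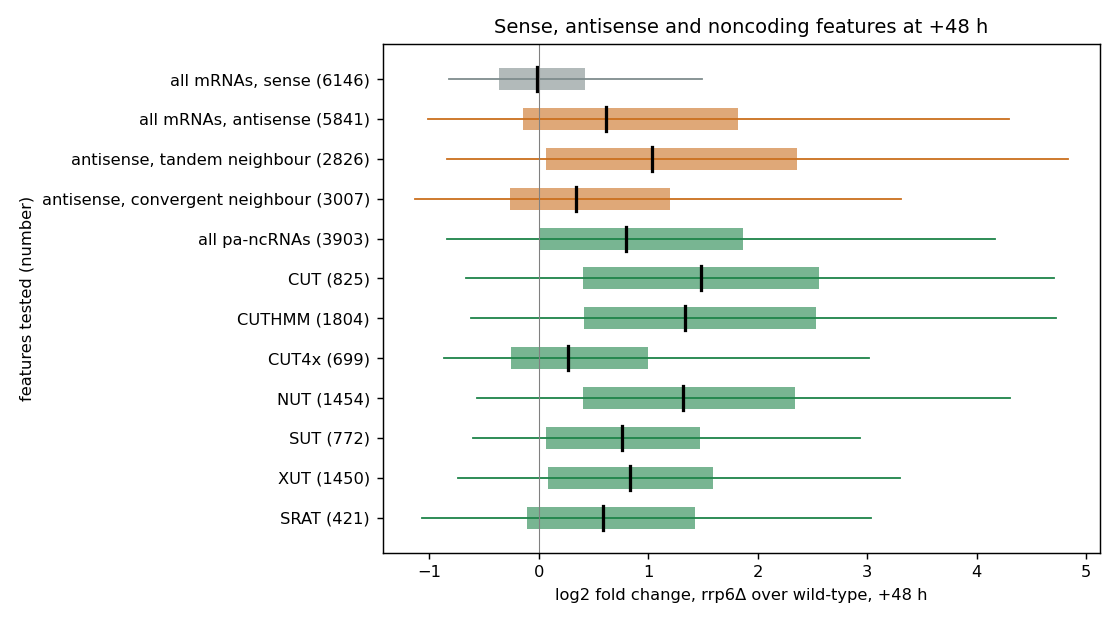
Distribution of log2 fold changes of rrp6Δ over wild-type at +48 h for sense mRNAs, antisense reads and the classes of noncoding transcripts, with the line from the 5th to the 95th percentile, the box over the quartiles and the tick at the median. The median is 1.48 for CUTs and 0.26 for CUT4x transcripts, against -0.02 for sense mRNAs, all with the scaling of the sense mRNAs.

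The transcripts with the largest rises were near 0 in wild-type. A pa-ncRNA merged from several catalogue entries is named here by a single entry. Its position and counts are those of the whole merged interval, as for NUT0922, which is merged with XUT-4R-364, CUTHMM-CUT1958 and CUT515. CUT350 (XIV:716433-716706, plus strand) had 46.9 and 77.0 CPM in rrp6Δ, against 0.653 and 1.42 CPM in wild-type (6.07 ± 0.36). NUT0922 (IV:888897-892477, minus strand), which lies opposite UPC2 and TCP1 and diverges from AHA1, had 99.8 and 101 CPM in rrp6Δ, against 1.96 and 0.712 CPM in wild-type (5.98 ± 0.28). CUT364 (XV:232482-232795, plus strand), opposite SPE2, had 59.3 and 39.1 CPM in rrp6Δ, against 0.326 and 2.14 CPM in wild-type (5.74 ± 0.41). The reads of NUT0922 and the antisense reads of UPC2 come from the same interval and strand. CUTHMM-CUT1980 (III:123382-123656, minus strand) had the most reads of the group, with 191 and 109 CPM in rrp6Δ, against 3.26 and 2.85 CPM in wild-type (5.57 ± 0.40).

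The others lay opposite named genes or diverged from them. NUT0544 (XII:826765-827948, plus strand), opposite the mitochondrial dicarboxylate carrier gene DIC1, had 31.7 and 28.6 CPM in rrp6Δ, against 0.653 and 1.42 CPM in wild-type (5.04 ± 0.42), and the DIC1 mRNA was higher too (1.17 ± 0.18). NUT1308 (XIII:545044-545747, minus strand), opposite CIN4 and divergent from RIM11, rose by 5.10 ± 0.38, as did the antisense reads of CIN4 on the same strand. The RIM11 mRNA fell (-0.54 ± 0.09, and 0.23 with K. lactis scaling). NUT0309 (VII:1038702-1039466, plus strand), divergent from EFG1, had 48.5 and 20.6 CPM in rrp6Δ, against 0.326 and 2.14 CPM in wild-type (5.23 ± 0.60). NUT0481 (XII:46659-47504, plus strand), opposite RNP1, runs over the unnamed frame YLL047W, so that its rise of 5.06 ± 0.27 and that of YLL047W, 5.01 ± 0.28, rest on the same reads.

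The transcripts that fell most lay over snoRNAs or opposite genes named above. NUT1320 (XIII:761586-763113, minus strand), opposite FAA4, spans snR86 and had 2165 and 2213 CPM in rrp6Δ, against 13730 and 15873 CPM in wild-type (-2.76 ± 0.11). snR86 alone had 2139 and 2199 CPM in rrp6Δ, against 13727 and 15869 CPM in wild-type. Nearly all reads of NUT1320 are thus those of snR86, and its fall is that of the snoRNA. NUT0947 (IV:1490245-1493167, minus strand) spans snR84 and fell by 2.14 ± 0.13 on the log2 scale, and the reads of snR84 (-2.22 ± 0.10) lie on the same strand. SUT090 (V:191977-192682, plus strand), opposite SPC25, had 3.21 and 5.24 CPM in rrp6Δ, against 25.1 and 32.04 CPM in wild-type (-2.70 ± 0.32). SRAT691 (XI:646132-649075, minus strand), opposite FLO10, had 40.9 and 50.8 CPM in rrp6Δ, against 271 and 303 CPM in wild-type (-2.64 ± 0.14). The falls of SUT090 and SRAT691 and the antisense falls of SPC25 and FLO10 given above rest largely on the same reads. Of 52 pa-ncRNAs that overlap a snoRNA on their own strand, 11 were higher and 20 lower (median -0.43), and with K. lactis scaling 24 were higher and 9 lower (median 0.38).

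Among structural RNAs, short and long snoRNAs went opposite ways. In the table of coding and structural features, where 45.8% of all features were called, 14 snoRNAs were higher and 20 lower of 69 tested (median -0.34, and 0.47 with K. lactis scaling). Of the 34 snoRNAs under 150 bases, 13 were higher and 0 lower, with a median of 1.29, and 2.09 with K. lactis scaling. Of the 35 snoRNAs of 150 bases or more, 1 was higher and 20 were lower, with a median of -0.87, and -0.10 with K. lactis scaling. The length of 150 bases was chosen after the values were seen. The long snoRNA that was higher, snR10 of 245 bases, had few reads, 36 and 29 in rrp6Δ, against 1 and 3 in wild-type, and with 3.83 ± 0.50 it had the largest log2 fold change of the snoRNAs tested. Those higher were between 88 and 245 bases long, and those lower between 171 and 1004 bases.

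What the batches in the headers stand for is not stated in the sources used here, and snoRNAs differed more between them than genes did. Between the runs of wild-type replicate 1, which are of 1 sample, 48 of 73 snoRNAs and snRNAs were over 1 log2 unit higher in batch 2 and 2 over 1 unit lower, with a median of 1.52, against -0.00 for genes. Within batches, which share wild-type replicate 1 as a control, 13 of the 14 snoRNAs called higher and all 20 called lower had the same sign in both. With batch as a term of the fit, added after seeing the data, 19 short snoRNAs were higher and 6 lower, and 1 long snoRNA was higher and 28 lower.

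The highest and lowest snoRNAs with a mean of at least 32 counts were as follows. snR71, a short box C/D snoRNA, had 43.7 and 39.9 CPM in rrp6Δ, against 4.57 and 5.70 CPM in wild-type (3.08 ± 0.23, with 2.77 in batch 1 and 3.10 in batch 2). snR56 had 46.1 and 51.2 CPM in rrp6Δ, against 6.85 and 7.83 CPM in wild-type (2.76 ± 0.26, with 2.92 and 2.33). snR51 differed more between replicates than these, with 774 and 206 CPM in rrp6Δ, against 71.5 and 23.5 CPM in wild-type (3.20 ± 0.57), and like snR52 (2.26 ± 0.53), snR48 (1.98 ± 0.47) and snR58 (3.27 ± 0.82) it did not pass when the 4 libraries were fitted alone. snR58 did not pass without wild-type replicate 1 either (4.98).

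snR86 (XIII:762110-763113), an exceptionally long box H/ACA snoRNA, had 2139 and 2199 CPM in rrp6Δ, against 13727 and 15869 CPM in wild-type (-2.77 ± 0.11, with -2.71 in batch 1 and -2.55 in batch 2). snR84, also of the H/ACA type, had 234 and 295 CPM in rrp6Δ, against 1141 and 1329 CPM in wild-type (-2.22 ± 0.10). Both stayed lower with K. lactis scaling, at -2.02 and -1.47. snR81 (-1.70 ± 0.29) was lower in both batches but did not pass in the 4 libraries alone. Of 4 snRNAs, the spliceosomal snR19 (-0.67) and LSR1 (-0.43) were lower, and with K. lactis scaling they were at 0.10 and 0.33, with 2 of the 4 called higher and 0 lower.

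**Figure D5:**
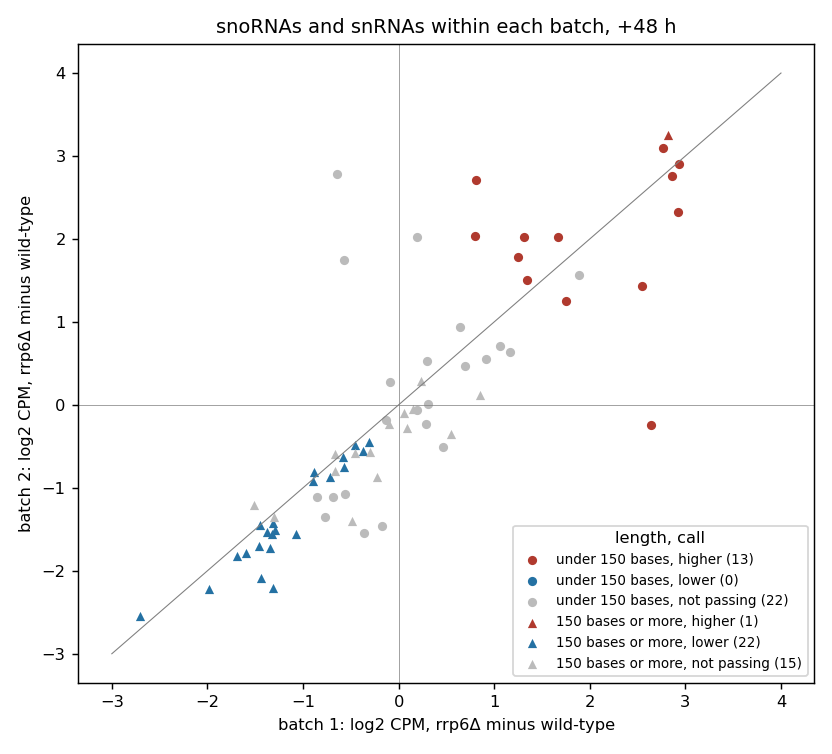
Log2 difference of rrp6Δ and wild-type within batch 1 (horizontal) and within batch 2 (vertical) for the 73 tested snoRNAs and snRNAs, with markers by length under 150 bases or longer. snR71 lies at 2.77 and 3.10 and snR86 at -2.71 and -2.55.

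The snoRNA effect differed from that at the earlier times, whose libraries were all of batch 1, while those at +48 h came from both batches. Against +24 h, 0 snoRNAs were higher and 36 lower at +48 h (45.1% of all features called), and against 2 h before the shift 0 were higher and 46 lower (48.6% called). The median snoRNA effect was 1.38 at +24 h and 2.13 at 2 h before the shift, against -0.34 at +48 h. Within batch 1 alone the median difference in log2 CPM at +48 h was -0.23. The median differences were -1.61 from +24 h and -2.002 from 2 h before the shift, and -2.22 and -0.74 with K. lactis scaling.

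Genes just downstream of snoRNAs, into which unprocessed or unterminated transcripts could run, were examined last. Of 38 mRNAs that start within 1000 bases downstream of a snoRNA or snRNA on the same strand, 17 were higher and 5 lower (median 0.24), beside 19.3% and 27.4% of all mRNAs. Among the 17 was the dubious frame YMR013W-A, behind snR74, which lies inside snR73 on the same strand. Its reads cannot be told apart from those of snR73. The highest, chosen after their values were seen, were unnamed frames close behind the snoRNA. YOR277C, 135 bases from snR31, had 23 and 25 reads in rrp6Δ, against 0 and 1 in wild-type, and YCL007C, 138 bases from snR43, had 41 and 60 reads in rrp6Δ, against 1 and 2 in wild-type. CTO1, behind snR33, had 15.6 and 15.3 CPM in rrp6Δ, against 3.92 and 4.98 CPM in wild-type (1.86 ± 0.32). YTM1, a ribosome assembly factor behind snR8, had 23.2 and 18.5 CPM in rrp6Δ, against 8.81 and 9.26 CPM in wild-type (1.22 ± 0.27). With K. lactis scaling the median of the 38 was 1.02.

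Transposable element genes had 34 higher and 9 lower of 231 tested, or 14.7% and 3.90%, beside 19.4% and 26.4% of all coding and structural features (median 0.30), and reads that matched more than 1 copy were not counted. Of 9 pseudogenes 0 were higher and 4 lower.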

How the data were processed

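Total RNA of 2 rrp6Δ and 2 wild-type cultures was sequenced. The authors deposited tables of read counts per feature, 1 column per run. Per the submitters' processing notes, the tools were FastQC, MultiQC, UMI-tools, STAR, SAMtools, HTSeq and deepTools, on the builds sacCer3 and R64, with no versions given. The names of the tables say that reads matching more than 1 feature or place were counted for none, and whether molecular identifiers were used to remove duplicates is not given in the sources used here. In every one of the tables there were 25 per-sample columns that were not used, and the runs of wild-type replicate 1 were summed. Replicates differed beyond sampling noise, with a chi-square per mRNA of 7.56 between rrp6Δ replicates, 4.03 between wild-type replicates and 5.18 between the runs of wild-type replicate 1. The rrp6Δ replicates came from different batches and the pairs differed in depth, so these values do not compare the spread of the strains.

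Counts were fitted with edgeR 4.0.16 (limma 3.58.1, R 4.3.3) by robust quasi-likelihood F-tests over the 20 Universal Plus libraries of G1 and the shift, after filterByExpr, with 10 residual degrees of freedom. Every table took its scaling, TMM factors included, from the sense mRNAs of S. cerevisiae. Benjamini-Hochberg adjustment ran over each whole table, at 0.05. The SE of a log2 fold change is its size divided by sqrt(F), and the prior count of log2 CPM was 2. Of 6600 locus tags, 5917 matched the RefSeq table that gave the names. Alternatives were DESeq2 1.42.0, K. lactis scaling, TMM on each table, no filter, the 4 libraries alone, a replicate block, single runs, leaving out each library and, added after seeing the data, batch as a term, the block within the 4 libraries and leaving out libraries for the K. lactis ratio. The fit of sense mRNAs was also run on simulated counts with a common spread and no batches, so snoRNAs and batch differences were not tested. Counting intervals at 95% cover counting error only. Tables were made with Python 3.11.15, pandas 2.3.3, NumPy 2.4.6, SciPy 1.17.1 and Matplotlib 3.10.9.

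The 37 gene lists and the rules for naming features were chosen with earlier results of these data known. Named features passed the test, had a mean of at least 32 counts over the 4 libraries and no overlap between the strains: the 10 highest and 10 lowest mRNAs with a standard name, the 6 and 4 for antisense and for structural RNAs, the 8 and 4 for pa-ncRNAs. From each list the 2 passing members with the largest changes in each direction could be named. For the differences between times, the 4 highest and 4 lowest were named where the mean was at least 32 counts over the 8 libraries and the 4 differences between rrp6Δ and wild-type libraries at +48 h did not overlap those at the other time. Sequences were not used here.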

Additional observations from a re-analysis of the deposited data

Results flagged for a closer look

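The effect of the deletion at +48 h differed from that at other times, by interaction contrasts of edgeR's quasi-likelihood test over 8 separate libraries each. The difference from +24 h passed for 2839 mRNAs and 841 pa-ncRNAs, and that from 2 h before the shift for 3048 mRNAs and 1261 pa-ncRNAs. Differences below are the log2 effect of the deletion at +48 h minus that at the other time.

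Against +24 h, the largest positive differences among mRNAs were SPS100 (7.16), PDC6 (6.80), ATO3 (6.58) and GRE1 (6.06), all far below wild-type at +24 h. GRE1 had 113 and 115 CPM in rrp6Δ at +24 h, against 16471 and 18780 CPM in wild-type. The largest negative ones were DSF1 (-4.60), HXT7 (-4.01), PTR2 (-3.62) and PIC2 (-3.43). DSF1, similar to mannitol dehydrogenases, had 25.6 and 28.6 CPM in rrp6Δ at +48 h, against 31.7 and 25.6 CPM in wild-type, and 313 and 477 CPM at +24 h, against 16.5 and 18.7 CPM.

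Against 2 h before the shift, the largest positive differences were NRK1 (3.91), RKM4 (3.40), DCG1 (3.34) and HAM1 (3.13), all at under 10 CPM in both strains at +48 h. NRK1, a nicotinamide riboside kinase, had 4.81 and 4.03 CPM in rrp6Δ at +48 h, against 0.653 and 0 CPM in wild-type, a ratio of 9.88 with a counting interval of 2.43 to 86.7. DCG1 and HAM1 had 3 and 2 reads over the wild-type libraries at +48 h. DCG1 did not pass without rrp6Δ replicate 1 (2.45), nor HAM1 without wild-type replicate 1 (2.49). The largest negative ones were CSM4 (-7.06), CPP3 (-5.60), HSP33 (-5.51) and ZRT1 (-5.32). CSM4, a meiotic gene, had 40.5 and 36.3 CPM in rrp6Δ at +48 h, against 70.8 and 74.8 CPM in wild-type, and 1.25 and 2.17 CPM before the shift, against 0 and 0, so its fitted difference is no bound. HSP33, of the Hsp31 family, had 22.4 and 27.4 CPM in rrp6Δ at +48 h, against 36.6 and 42.7 CPM in wild-type, and 2.38 and 3.51 CPM before the shift, against 0.132 and 0 CPM.

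Some pa-ncRNAs overlap a gene on the same strand, so that reads of both cannot be told apart there. Merged pa-ncRNAs are again named by a single entry, and their values are those of the whole merged interval. Against +24 h the largest positive differences were NUT1058 over PDC6 (6.63), SRAT1178 over AQY1 (5.25), NUT1462 over GRE1 (5.02) and CUTHMM-CUT1872 over NCA3 (4.92). The largest negative ones were CUT447 (-5.27), CUTHMM-CUT527 opposite UBC1 (-5.09), CUT4x-CUT4128 over PTR2 (-4.64) and NUT1263 opposite RED1 (-3.87). CUT447 had 7.61 and 10.1 CPM in rrp6Δ at +48 h, against 3.26 and 2.14 CPM in wild-type, and 57.3 and 56.6 CPM at +24 h, against 0.648 and 0.297 CPM. CUTHMM-CUT527 had 2.00 and 1.21 CPM in rrp6Δ at +48 h, and did not pass without rrp6Δ replicate 2 (-4.77), wild-type replicate 1 (-5.72) or wild-type replicate 2 (-4.66). NUT1263 had 6.41 and 6.05 CPM in rrp6Δ at +48 h, against 1.31 and 0 CPM in wild-type, and its difference turned to 1.42 without wild-type replicate 1.

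Against 2 h before the shift the largest positive differences were CUT136 (5.68), NUT1345 opposite MER1 (5.56), XUT-2R-256 opposite PCH2 (3.17) and CUT4x-CUT3091 over TRP3 (3.00). CUT136 and NUT1345 had 0 reads in wild-type at +48 h, where rrp6Δ was at least 11.4-fold and at least 4.79-fold higher against a floor of 3 counts over the group, and their fitted differences are no bounds. CUT136 did not pass without wild-type replicate 1 (5.70) or replicate 2 (5.72), nor NUT1345 without rrp6Δ replicate 1 (5.19) or wild-type replicate 1 (5.58). The largest negative ones were NUT0121 (-9.28), XUT-10R-62 opposite MRS3 (-6.34), NUT1462 over GRE1 (-5.61) and SRAT986 opposite PUL4 (-5.32). NUT0121 had 60.9 and 43.5 CPM in rrp6Δ at +48 h, against 42.8 and 31.3 CPM in wild-type, and 18.4 and 21.6 CPM before the shift, against 0 and 0, so its fitted difference is no bound. XUT-10R-62 had 7.21 and 3.23 CPM in rrp6Δ at +48 h, against 11.1 and 6.41 CPM in wild-type, and 15.7 and 20.1 CPM before the shift, against 0.529 and 0.174 CPM.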

How the results depend on the processing

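With K. lactis scaling, 4727 mRNAs were called (4652 higher, 75 lower), 3627 antisense (3587 and 40), 2894 pa-ncRNAs (2861 and 33), 4856 coding and structural features (4779 and 77) and 4822 mRNA differences from 2 h before the shift (4544 and 278). Differences from +24 h then numbered 3227 for mRNAs (376 and 2851) and 1223 for pa-ncRNAs (130 and 1093), and pa-ncRNA differences from 2 h before the shift 1290 (1023 and 267). K. lactis scaling turned the sign of 30 of the values named by the rules: RRP43 0.46, LRP1 0.17, GLC7 0.16, RTT103 0.31, NAM7 0.25, NMD2 0.31, ADH1 0.11, DBP3 0.021, ACO1 0.10, CAT8 0.38, KGD1 0.13, COX7 0.060, SCL1 0.20, RPT4 0.17, PRM5 0.25, POL12 0.37, DSE1 0.21, CTS1 0.18, HTB1 0.056, HHF2 0.092, LYS1 0.071, ILV5 0.12, STR3 0.25, CYS4 0.23, RPC10 0.31, TIF35 0.026, FLO10 0.22, FLO9 0.24, PDX3 0.52 and RME1 0.21. CIN4, RNP1, RIM11, snR19 and LSR1, named beside other features, turned as well, as given above. The cause of the shift between the scalings was not tested. Without wild-type replicate 1, ASG7 was at -0.48 and the difference of NUT1263 from +24 h at 1.42, and without wild-type replicate 2 they were at 5.49 and -4.41. Leaving out each library gave 1817 to 2592 mRNAs, 1403 to 1971 antisense, 1336 to 1745 pa-ncRNAs and 1873 to 2645 coding and structural features, each lowest without wild-type replicate 1. Differences from +24 h ranged between 2312 and 2732 for mRNAs and 515 and 788 for pa-ncRNAs, those from 2 h before the shift between 2359 and 2908 and between 859 and 1204, and the log2 difference in reads per K. lactis read between 0.27 and 0.52. Fitting only genes with no gene or pa-ncRNA opposite gave 521 antisense calls (409 higher, 112 lower of 2195). TMM on each table gave 2177 antisense calls (1167 and 1010) and 1739 pa-ncRNA calls (797 and 942). DESeq2 called 2723, 1825, 1722 and 2751 features in the 4 tables, the 4 libraries alone 2208, 1702, 1490 and 2119, and batch as a term 2683, 2080, 1885 and 2769. Same-numbered replicates did not deviate together, with a correlation of 0.06 at +48 h, and a replicate block gave 2894 mRNAs, 2224 antisense, 1932 pa-ncRNAs and 2957 coding and structural features. Over 203 named values and all settings, 2423 kept direction and call, 153 kept direction and missed the threshold, and 32 turned. The 4 libraries, at 1596415 to 3632279 mRNA reads, limit what can be seen of features with few reads.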

Other observations

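The 20S RNA, a cytoplasmic single-stranded RNA replicon carried by many laboratory strains, was counted separately from the S. cerevisiae mRNAs. At +48 h there were 2.09 and 2.48 reads of it per S. cerevisiae mRNA read in rrp6Δ, against 2.60 and 3.01 in wild-type. At +24 h there were 0.120 and 0.137 in rrp6Δ, against 0.730 and 0.663 in wild-type. The order was the other way earlier: 0.491 and 0.574 in rrp6Δ at +2 h, against 0.0479 and 0.0476 in wild-type, and 0.0811 and 0.101 at 2 h before the shift, against 0.0198 and 0.0230. Within each strain the ratio was highest at +48 h among these times. These ratios also depend on the mRNA reads they are set against. At +48 h there were 4555698 and 5595422 reads of 20S RNA in rrp6Δ, beside 1494713 and 1493468 K. lactis reads. In wild-type there were 9459767 and 4808548, beside 3496457 and 1296391 K. lactis reads. Taken per K. lactis read, the strains overlapped at +48 h.

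The S. cerevisiae mRNA reads per K. lactis read changed with time in both strains. They were 9.55 and 8.77 in rrp6Δ at 2 h before the shift, against 13.9 and 13.6 in wild-type, 3.59 and 3.71 at +2 h, against 6.89 and 6.88, and 6.02 and 5.66 at +24 h, against 2.66 and 2.88. At +48 h they were lowest in both strains, as given above. Antisense reads were 9.29% to 9.80% of sense reads in rrp6Δ at the other times, against 5.29% to 7.17% in wild-type.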
